A study of Homo sapiens with 4 samples.

Results

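Messenger RNA levels of 9 enzymes of the tricarboxylic acid cycle were compared between a temozolomide-resistant line and its parental glioma line. The genes were taken by symbol from a table of 58219 Ensembl gene IDs through the GENCODE annotation, and all 9 were found. They are CS (citrate synthase), SUCLG1, SUCLG2 and SUCLA2 (the subunits of succinyl-CoA synthetase), SDHA and SDHB (the catalytic subunits of succinate dehydrogenase), FH (fumarase), MDH1 (cytosolic malate dehydrogenase) and MDH2 (mitochondrial malate dehydrogenase). The resistant group holds 2 libraries of GBM8401 cells kept for 140 days in medium with 200 µM temozolomide (TMZ), an alkylating drug used against glioblastoma. The parental group holds 2 libraries of GBM8401 cells, a human malignant glioma line, not selected with the drug. Both groups share the culture medium named in the labels, and the resistant cells stand for 1 selected derivative of 1 parent line. The labels leave unstated whether TMZ was present when RNA was taken. The labels call the replicates biological but name no separate days or cultures, so p-values measure the spread between these libraries, which may be technical in part.

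The cycle oxidises acetyl groups in the mitochondrial matrix. Citrate synthase joins acetyl-CoA to oxaloacetate, succinyl-CoA synthetase makes GTP or ATP, succinate dehydrogenase passes electrons to the respiratory chain, fumarase hydrates fumarate to malate, and malate dehydrogenase regenerates oxaloacetate. MDH1 runs the malate reaction in the cytosol, where it serves the malate-aspartate shuttle that carries reducing equivalents into mitochondria. In glioma the cycle is known for mutations of isocitrate dehydrogenase, and inherited loss of FH or of succinate dehydrogenase subunits leads to tumours in other organs.

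Judged from their values, the deposited numbers are fragments per gene multiplied by a library's own factor, and they are called scaled fragments here. Deposited totals were 23163310 and 24225039 in the resistant libraries and 24791254 and 25832511 in the parental ones. Of 16132 genes tested, 37.1% were called (limma on log2(value + 1), Benjamini-Hochberg adjusted p under 0.05 over all genes tested), with 16.2% of genes higher in the resistant line and 20.9% lower. With scaling to library totals alone the share of called genes that were higher was 56.9%, against 43.7% with the deposited scaling. The number of called genes was 5991, and it was 3528 without resistant replicate 1 and 3786 without resistant replicate 2. Among 10 glioma and astroglia markers, VIM, NES, CD44 and EGFR had 3430 to 81177 scaled fragments in every library. GFAP and AQP4, which define astrocytes, were at 0 to 2.87. SOX2, S100B and FABP7 were also low, at 0.956 to 21.2, and OLIG2 was at 183 to 237. VIM, NES and CD44 were called lower, and the summed level of the 10 markers was 76837 and 85545 in resistant libraries, against 114704 and 121115 in parental ones. Summed markers ranged from 145 to 171 against 124 to 172 for hematopoietic cells, from 365 to 450 against 578 to 624 for endothelial cells, from 581 to 746 against 457 to 726 for epithelial cells, from 4446 to 5557 against 3984 to 5527 for fibroblasts and from 252 to 287 against 137 to 156 for neurons (each range of resistant libraries set against that of parental ones). In those 5 lists the calls were RBFOX3, a neuronal splicing factor, as higher and CDH5, an endothelial cadherin, as lower. Their part in the results was not tested. The library titles name only the glioma line and its resistant derivative, and whether other cells were present was not tested. In such bulk samples fewer cells of a type and less RNA per cell cannot be told apart.

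The bases upstream of FH and MDH1, the 2 genes that passed the test, are shown first. They are RefSeq sequence on GRCh38.p14, in lower case, with matches to 5 promoter motifs in capitals. The stretch of FH (chr1:241519762-241520005, minus strand) ends 6 bases before the RefSeq start and lies in no GENCODE exon. Its capitals mark 2 CCAAT boxes, read here as ATTGG on the other strand, and 2 GC boxes, read as CCGCCC and GGGCGG. The stretch of MDH1 (chr2:63588735-63588759, plus strand) is limited to its single CCAAT box, 213 bases before the first RefSeq start. It is short because annotated exons cover the whole upstream window, and the box lies inside MDH1 as GENCODE places it. The window of a second RefSeq start of MDH1 (chr2:63588896-63589145) held no match to any of the 5 motifs. Another set comes from SDHA (chr5:218070-218319, plus strand), whose 250 upstream bases held 4 matches to the NRF1 motif, each written below with 9 or 10 bases on either side. Annotated exons cover 202 of these 250 bases, and matches 3 and 4 lie inside SDHA as GENCODE places it. NRF1 is a nuclear transcription factor known to act on genes of the respiratory chain.
FH: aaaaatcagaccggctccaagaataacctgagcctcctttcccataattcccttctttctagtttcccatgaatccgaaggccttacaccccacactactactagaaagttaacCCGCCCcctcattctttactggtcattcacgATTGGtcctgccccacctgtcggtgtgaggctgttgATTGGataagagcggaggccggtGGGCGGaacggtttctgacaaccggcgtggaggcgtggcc
MDH1: ttgtcgtcctCCAATcacaggggct
SDHA, match 1: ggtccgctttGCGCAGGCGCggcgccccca
SDHA, match 2: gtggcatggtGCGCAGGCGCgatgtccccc
SDHA, match 3: ccggcgtggtGCGCAGGCGCggtatccccc
SDHA, match 4: ccggtgtggtGCGCAGGCGCagtctgcgc
Across the 9 genes, with 1 window of 250 upstream bases each, both strands were searched. The windows of SUCLG1, SUCLA2 and MDH1 lie wholly inside those genes as GENCODE places them. Annotated exons cover 216 of the 250 bases of the SUCLA2 window. The NRF1 motif (GCGCA and GCGC with any 1 base between them) was found in 2 of 9 windows, those of SUCLA2 and SDHA, and in 5.07% of 35116 windows of all genes. CCGGAAG (the ETS family) was found in 2, those of SDHB and MDH2, and in 8.52% of all windows. The SDHB match lies inside SDHB as GENCODE places it. Annotated exons cover 138 of the 250 bases of the SDHB window and 204 of those of MDH2. CCAAT was found in 4, those of CS, SUCLA2, FH and MDH1, against 32.0% of all windows, and GGGCGG in 5, those of CS, SUCLG2, SUCLA2, SDHB and FH, against 42.6%. The E-box CACGTG was found in 0 of the 9 and in 6.34% of all windows. No match overlapped another in the 9 windows. These are matches of letters, and binding was not measured.

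All 9 genes passed the filter on low values in both groups, with single libraries from 1043 (SUCLA2) to 12193 (CS) scaled fragments. The 9 genes were not ranked by level among all genes tested. Their sum was 36028 and 37846 scaled fragments in resistant libraries and 36292 and 36631 in parental ones. As a part of 1000000 of the deposited total the sum was 1555 and 1562 in resistant libraries and 1464 and 1418 in parental ones, so the comparison of sums depends on the scaling. MDH1 was called higher and FH lower in resistant cells, and the other 7 genes did not pass the test. That is 1 of 9 called higher and 1 of 9 called lower, against 16.2% and 20.9% of all genes tested. The groups did not overlap in 7 of the 9 genes, against 68.6% of all genes tested. The median log2 fold change was −0.01 over the 9 genes and −0.02 over all genes, and the median absolute log2 fold change was 0.14 against 0.32.

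**Figure D1:**
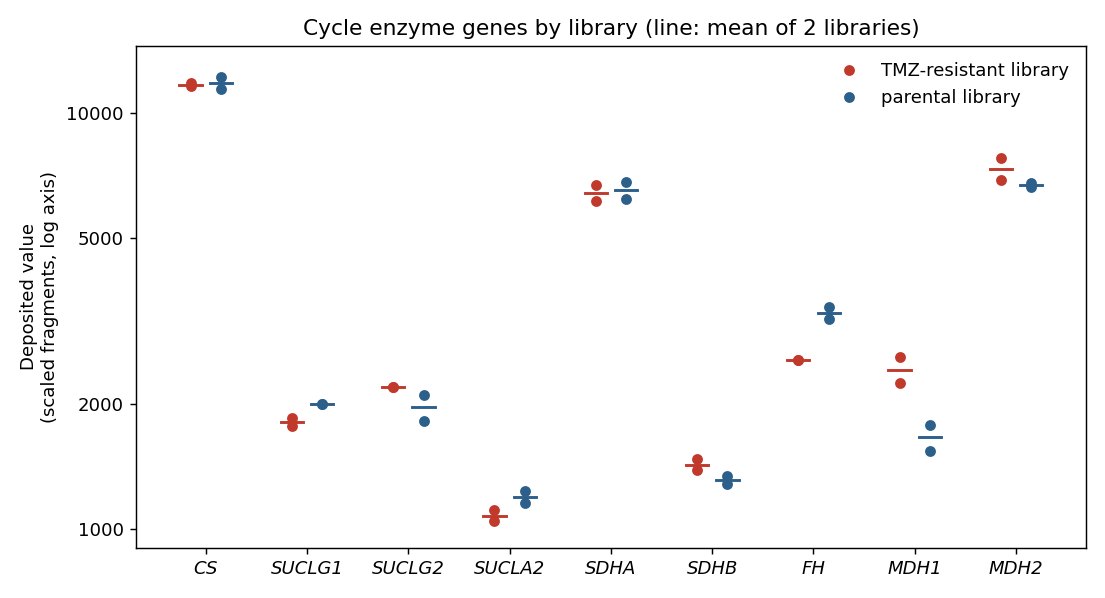
Scaled fragments (log axis) of each gene in each library, with TMZ-resistant libraries left in red, parental libraries right in blue, and a line at the mean of the 2 libraries of a group. FH is lower and MDH1 higher in both resistant libraries, while the points of CS and SDHA interleave between groups.

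Citrate synthase, which catalyses the first step, did not separate the groups. CS (ENSG00000062485, chromosome 12, 56271699 to 56300392, minus strand) had 11586 and 11824 scaled fragments in resistant cells and 12193 and 11442 in parental cells. Both resistant values lay between the parental ones. The means were 11705 ± 168 in resistant and 11817 ± 531 in parental cells (SD, n = 2 each), and the log2 fold change was −0.01 ± 0.07 (SE; limma adjusted p = 0.903). Its 95% interval ran from 0.888-fold to 1.11-fold. CS shares 220 exon bases with AC073896.1 on the same strand, which had 55.4 and 25.8 scaled fragments in resistant libraries and 41.4 and 109 in parental ones.

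Succinyl-CoA synthetase pairs the shared alpha subunit, SUCLG1, with a beta subunit that sets the nucleotide, SUCLG2 for GTP or SUCLA2 for ATP. None of the 3 genes passed the test, and the beta subunits leaned in opposite directions. SUCLG1 (ENSG00000163541, chromosome 2, 84423523 to 84460045) had 1848 and 1768 scaled fragments in resistant cells and 1994 and 1992 in parental cells. Both resistant values lay below both parental ones, with a log2 fold change of −0.14 ± 0.08 (SE; limma adjusted p = 0.197). SUCLG2 (ENSG00000172340, chromosome 3, 67360460 to 67654614) had 2191 and 2189 in resistant cells and 1819 and 2101 in parental cells. The resistant values were higher without overlap, but the parental libraries differed by 0.21 on the log2 scale, more than the 0.16 ± 0.09 between groups (SE; limma adjusted p = 0.196). It was 0.060 without parental replicate 1 and 0.27 without parental replicate 2. With scaling to library totals alone it was 0.26 and passed (limma adjusted p = 0.0286), in a range of adjusted p from 0.0286 to 0.666 over 13 alternative settings. SUCLA2 (ENSG00000136143, chromosome 13, 47745736 to 48037968) had 1106 and 1043 in resistant cells and 1154 and 1233 in parental cells. The resistant values were lower without overlap, with a log2 fold change of −0.15 ± 0.09 (SE; limma adjusted p = 0.223).

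The ratio of the ATP-forming to the GTP-forming subunit is free of library scaling. SUCLA2 over SUCLG2 was 0.505 and 0.477 in resistant cells and 0.635 and 0.587 in parental cells, a ratio 1.24-fold lower in resistant cells. The 2 groups did not overlap. The exact two-sided permutation test gave p = 0.333, the smallest that this test can give with 2 against 2 libraries, so it cannot reach 0.05 here whatever the difference. SUCLG1 over the sum of both beta subunits was 0.561 and 0.547 in resistant and 0.671 and 0.597 in parental cells, again without overlap (exact permutation p = 0.333). Ratios of deposited values are not divided by gene length, so only their difference between groups is read.

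Succinate dehydrogenase is complex II of the respiratory chain, with SDHA as the flavoprotein and SDHB as the iron-sulfur subunit. Neither passed the test. SDHA (ENSG00000073578, chromosome 5, 218241 to 256700, plus strand) had 6158 and 6696 scaled fragments in resistant cells and 6221 and 6823 in parental cells. The libraries interleaved, with a log2 fold change of −0.02 ± 0.08 (SE; limma adjusted p = 0.866) and a 95% interval from 0.867-fold to 1.12-fold. SDHB (ENSG00000117118, chromosome 1, 17018722 to 17054170, minus strand) had 1468 and 1383 in resistant cells and 1335 and 1278 in parental cells. Its resistant values were higher without overlap, at 0.12 ± 0.09 on the log2 scale (SE; limma adjusted p = 0.288). SDHA over SDHB was 4.19 and 4.84 in resistant and 4.66 and 5.33 in parental cells, and the groups overlapped (exact permutation p = 0.667).

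SDHA has near-identical pseudogene copies, and fragments may be divided among them with error. SDHAP1 (chromosome 3, 195959748 to 195990318) had 546 and 580 scaled fragments in resistant cells and 756 and 903 in parental cells. It was called lower, at −0.55 ± 0.12 on the log2 scale (SE; limma adjusted p = 6.93e-03), and it amounted to 8.87% and 8.66% of the SDHA value in resistant libraries, against 12.1% and 13.2% in parental ones. SDHA and SDHAP1 summed to 6704 and 7276 in resistant and 6976 and 7726 in parental libraries, which still overlap, with a difference of −0.07 on the log2 scale. SDHAP3 had 17.3 and 20.4 in resistant and 22.0 and 23.9 in parental libraries, and SDHAP2 was listed at 0 in all 4. Of 9 annotated copies of the genes, 4 were listed at 0 in every library and 3 had at least 10 scaled fragments in 2 libraries. These were SDHAP1, SDHAP3 and SUCLG2P2, and the last held 0.621% to 1.16% of the SUCLG2 value.

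FH, which hydrates fumarate to malate, was the gene that fell. FH (ENSG00000091483, chromosome 1, 241497603 to 241519761, minus strand) had 2541 and 2547 scaled fragments in resistant cells and 3413 and 3189 in parental cells. The resistant libraries were nearly equal, and both lay 0.32 or more below the parental ones on the log2 scale. The means were 2544 ± 4.40 in resistant and 3301 ± 158 in parental cells (SD, n = 2 each). The log2 fold change was −0.37 ± 0.08 (SE; limma adjusted p = 6.19e-03), or 1.30-fold lower in resistant cells. As resistant over parental it was 0.771-fold, with a 95% interval from 0.683-fold to 0.871-fold. Among all genes tested, 43.7% had a larger absolute change. Of 4 other coding genes tested within 1 Mb of FH, 1 was called higher and 2 lower, against 16.2% and 20.9% of all genes. Their median log2 fold change was −0.29, against −0.02 over all genes, and the part of this region was not tested. The processed copy FHP1 had 5.27 and 2.27 scaled fragments in resistant and 7.32 and 2.87 in parental libraries. GENCODE has no gene that overlaps FH.

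MDH1, the cytosolic malate dehydrogenase, was the gene that rose. MDH1 (ENSG00000014641, chromosome 2, 63588609 to 63607197, plus strand) had 2240 and 2583 scaled fragments in resistant cells and 1541 and 1774 in parental cells. Both resistant values lay at least 0.34 above both parental ones on the log2 scale, and the libraries of each group differed by 0.21 (resistant) and 0.20 (parental). The means were 2411 ± 243 in resistant and 1657 ± 165 in parental cells (SD, n = 2 each), a log2 fold change of 0.54 ± 0.10 (SE; limma adjusted p = 4.76e-03), or 1.45-fold with a 95% interval from 1.23-fold to 1.72-fold. Among all genes tested, 28.4% had a larger absolute change. Of 8 coding genes tested within 1 Mb of MDH1, 2 were called higher and 1 lower, against 16.2% and 20.9% of all genes. Their median log2 fold change was 0.10, against −0.02 over all genes. MDH1 shares 191 exon bases with WDPCP on the other strand. The strand setting of the counting was not found in the labels, so fragments of MDH1 and WDPCP cannot be told apart over those bases. WDPCP had 188 and 177 scaled fragments in resistant and 130 and 145 in parental libraries (log2 fold change 0.40 ± 0.16, SE; limma adjusted p = 0.0847).

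MDH2, the mitochondrial malate dehydrogenase of the cycle itself, leaned the same way by less. MDH2 (ENSG00000146701, chromosome 7, 76048051 to 76067508, plus strand) had 6891 and 7813 scaled fragments in resistant cells and 6623 and 6801 in parental cells. The nearest libraries of the 2 groups differed by 0.02 on the log2 scale, and the log2 fold change was 0.13 ± 0.08 (SE; limma adjusted p = 0.25). It was 0.038 without resistant replicate 2 and 0.22 without resistant replicate 1. With scaling to library totals alone it was 0.22 and passed (limma adjusted p = 0.0294), where the 13 alternative settings gave adjusted p from 0.0294 to 0.817. MDH1 over MDH2 was 0.325 and 0.331 in resistant cells and 0.233 and 0.261 in parental cells, 1.33-fold higher without overlap (exact permutation p = 0.333). FH over MDH2, which compares the enzymes on either side of malate, was 0.369 and 0.326 in resistant cells and 0.515 and 0.469 in parental cells, 1.42-fold lower without overlap (exact permutation p = 0.333).

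**Figure D2:**
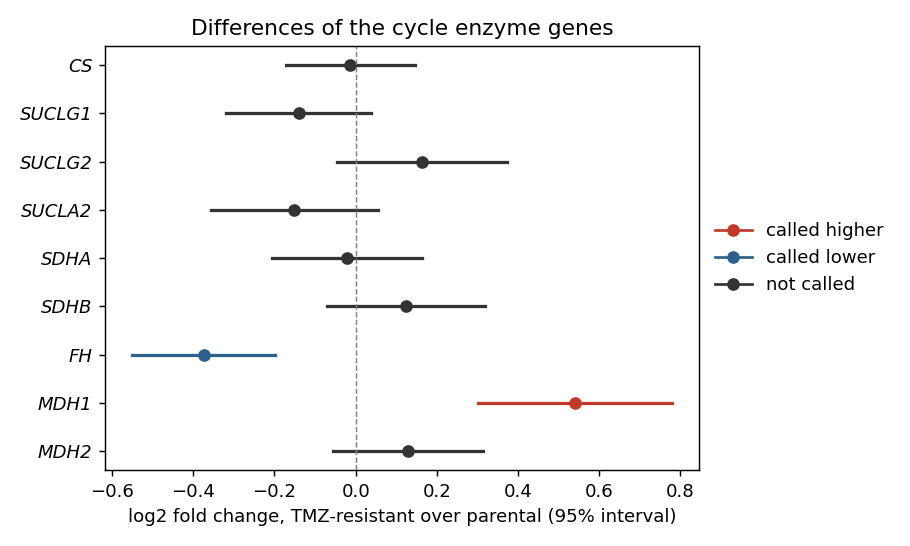
Log2 fold change of resistant over parental cells for each gene, with its 95% interval from limma. The intervals of MDH1 (0.30 to 0.78) and FH (−0.55 to −0.20) exclude 0, and the other 7 include it.

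**Figure D3:**
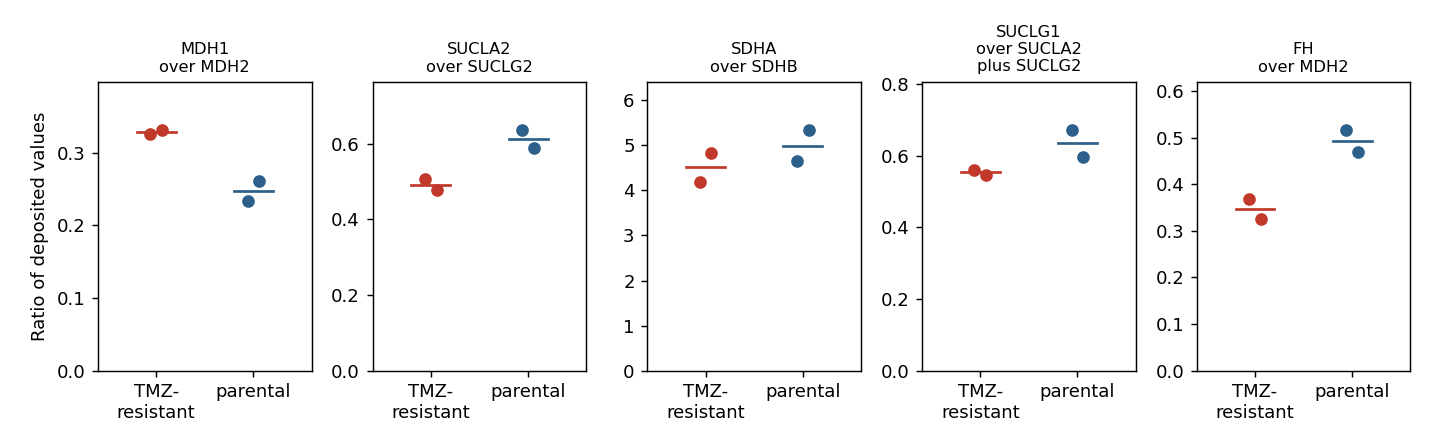
Ratio of the deposited values of 2 partner genes in each library (points), with the mean of a group as a line, resistant left and parental right. Resistant and parental libraries do not overlap in 4 of the 5 ratios and overlap for SDHA over SDHB. Taken singly, 68.6% of all genes tested also did not overlap, and no such share was computed for ratios.

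Levels between genes were compared per length, as scaled fragments per kilobase of merged exons per 1000000 of the deposited total. In resistant cells MDH2 and CS were at the top with 85.1 ± 4.86 and 77.2 ± 1.34, followed by FH with 50.1 ± 1.50, SDHA with 32.3 ± 0.891, SUCLG2 with 29.9 ± 0.967, SDHB with 24.5 ± 1.81, MDH1 with 20.4 ± 1.41, SUCLG1 with 17.8 ± 1.12 and SUCLA2 with 5.09 ± 0.373 (SD, n = 2). In parental cells CS and MDH2 came first with 73.0 ± 5.40 and 72.8 ± 0.753 and did not differ beyond their spread. They were followed by FH with 60.9 ± 4.69, SDHA with 30.7 ± 1.11, SUCLG2 with 25.0 ± 1.82, SDHB with 21.0 ± 1.25, SUCLG1 with 18.4 ± 0.550, MDH1 with 13.1 ± 0.922 and SUCLA2 with 5.28 ± 0.0936. MDH1 and SUCLG1 changed places between the groups. The order depends on the length used. With the length of the APPRIS principal transcript, MDH1 ranked 4 in resistant cells at 61.6 ± 4.25, just above FH at 59.8 ± 1.79, and the 2 did not differ beyond their spread. In parental cells by the same length FH was at 72.6 ± 5.60 and MDH1 at 39.6 ± 2.79.

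In the same fit, 13 genes of aconitase, isocitrate dehydrogenase, the oxoglutarate dehydrogenase complex and the anchor subunits of complex II were read. They include ACO1 and IDH1, whose enzymes act in the cytosol, outside the cycle of the matrix. Of the 13, 2 were called higher and 1 lower, against 16.2% and 20.9% of all genes tested. Neither share stood above that of all genes, and the median log2 fold change was 0.13. SDHC, an anchor subunit of succinate dehydrogenase, had 3063 and 3398 scaled fragments in resistant and 2527 and 2656 in parental cells and rose by 0.32 ± 0.08 (SE; limma adjusted p = 0.0186). The other anchor subunit, SDHD, was not called, with 1628 and 1936 in resistant and 1605 and 1945 in parental cells. Its log2 fold change was 0.007 ± 0.12 (SE; limma adjusted p = 0.973). The call of SDHC thus differed from those of SDHD and of the catalytic subunits, and the difference between subunits was not tested. IDH3A, of the NAD-dependent isocitrate dehydrogenase, was lower at −0.38 ± 0.07 (SE; limma adjusted p = 5.09e-03). OGDHL, a paralogue of the oxoglutarate dehydrogenase gene, was called higher at low values of 13.6 and 10.2 in resistant and 2.44 and 1.91 in parental cells. Of the 4 complex II assembly genes, 1 was called higher and 0 lower, with a median log2 fold change of −0.08. It was SDHAF4, with 136 and 143 scaled fragments in resistant and 73.2 and 80.3 in parental cells.

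Of 5 other genes of the malate-aspartate shuttle, 1 was called higher and 3 lower, against 16.2% and 20.9% of all genes tested, with a median log2 fold change of −0.27. GOT1, the cytosolic aspartate aminotransferase that works beside MDH1, had 4608 and 3966 scaled fragments in resistant and 2692 and 2399 in parental cells, 1.68-fold higher (limma adjusted p = 8.32e-04). GOT1 lies at 99396870 to 99431569 on chromosome 10, where 6 of 13 coding neighbours within 1 Mb were also called higher and 0 lower. The shares of all genes tested were 16.2% and 20.9%, and the part of this region in the rise of GOT1 was not tested. GOT2, the mitochondrial aminotransferase, fell by 0.27 ± 0.07 on the log2 scale (SE; limma adjusted p = 0.0154). The aspartate-glutamate carriers were lower as well, SLC25A13 at −0.55 ± 0.09 and SLC25A12 at −0.36 ± 0.10 (SE; limma adjusted p = 1.84e-03 and 0.0232).

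Of 16 genes of reactions that feed or drain the cycle, 5 were called higher and 4 lower, against 16.2% and 20.9% of all genes tested, with a median log2 fold change of 0.13. PCK2, the mitochondrial phosphoenolpyruvate carboxykinase, was 1.71-fold higher and PC, the pyruvate carboxylase that makes oxaloacetate, 1.61-fold higher (limma adjusted p = 3.21e-03 and 4.11e-03). DLAT, the acetyltransferase of the pyruvate dehydrogenase complex, was lower at −0.39 ± 0.08 and the malic enzyme ME2 at −0.43 ± 0.09 (SE; limma adjusted p = 6.52e-03 and 8.12e-03). Of the related dehydrogenases, LDHA was lower at −0.33 ± 0.08 (SE; limma adjusted p = 9.32e-03), and MDH1B, a paralogue of MDH1, stood at 9.79 and 14.4 in resistant and 16.3 and 17.2 in parental cells.

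A list of 13 genes of mitochondrial import, chaperones, outer membrane channels, prohibitins, TFAM and ATP synthase was read as well. Of these, 0 were called higher and 9 lower, against 16.2% and 20.9% of all genes tested, with a median log2 fold change of −0.37 against −0.02 over all genes. TOMM40, the channel of the import complex, fell by 1.18 ± 0.08 on the log2 scale (SE; limma adjusted p = 5.80e-05). The chaperone genes HSPE1 and HSPD1 and the prohibitin gene PHB1 were at −0.71, −0.54 and −0.56. The list summed to 85134 and 87499 scaled fragments in resistant and 106831 and 105094 in parental libraries. CS, for comparison, lay between 11442 and 12193 in all 4. The 13 mitochondrially encoded genes summed to 644346 and 723393 in resistant and 701068 and 823292 in parental libraries, with 0 of 13 called higher and 7 lower against the same shares of all genes, and their part in the results for the 9 enzymes was not tested.

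**Figure D4:**
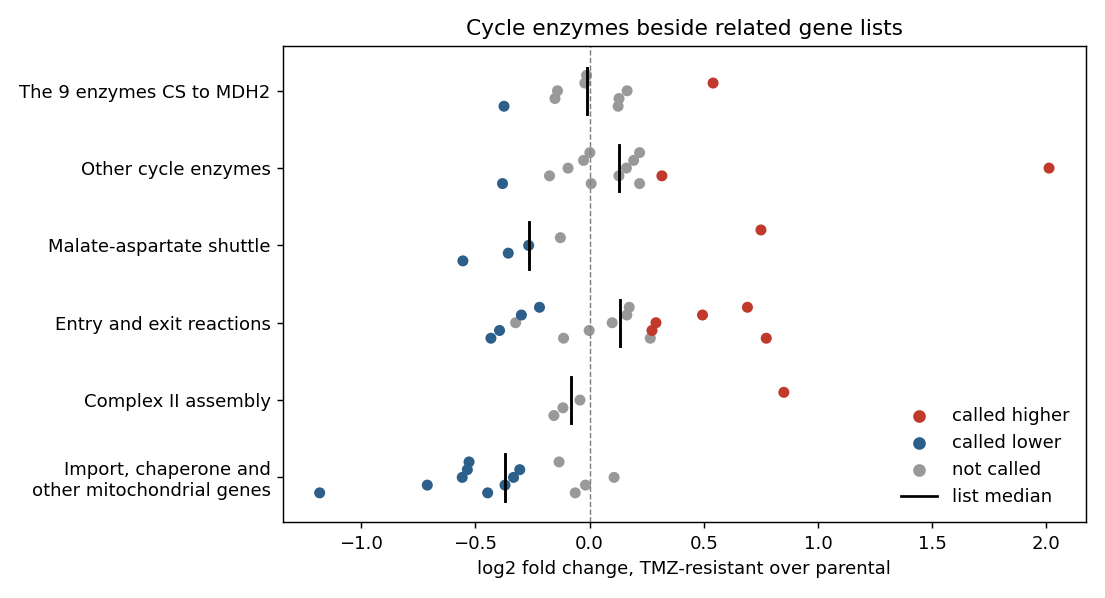
Log2 fold change of resistant over parental cells for the tested genes of 6 lists (points; red called higher, blue called lower, grey not called), with the list median as a black line. The 9 enzymes hold 1 red and 1 blue point beside 7 grey ones, and the list of import, chaperone and other mitochondrial genes holds 9 blue points.

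By the pattern over the 4 libraries (Euclidean distance of centred log2 values, among 41 tested genes of these pathways), MDH1 was nearest to PC at 0.17 and FH to SLC25A12 at 0.06. PC had 1810 and 2126 scaled fragments in resistant and 1091 and 1352 in parental cells, and SLC25A12 had 720 and 696 in resistant and 955 and 860 in parental cells. CS was nearest to ACO1 at 0.03, SDHA to DLD, SDHB to GLUD1, MDH2 to OGDH, SUCLG2 to PDHB, and both SUCLG1 and SUCLA2 to DLST, at 0.05 to 0.15. With 4 libraries in 2 groups these distances describe the libraries only.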

How the data were processed

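Total RNA of 4 libraries, 2 per group, was sequenced after strand-specific library preparation, per the labels' protocols. The submitters' processing notes name HISAT2 2.1.0, Cufflinks 2.2.1, Cuffdiff, Trimmomatic 0.36, SAMtools 1.2, bcl2fastq and the build GRCh38.p10. Their settings, the annotation release, the scaling and the strand setting were not found in the labels. The authors deposited signal values, which by their steps are fragments per gene times 1 factor per library, without division by length. Of the values above 0, 93.8% to 94.3% were whole multiples of the library's step within 0.05, and the totals correspond to 27019137 to 30759939 fragments.

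Genes with at least 10 in at least 2 libraries and a sum of at least 15 were kept. Values were analysed as log2(value + 1) with limma 3.58.1 (R 4.3.3, trend and robust moderation, group alone in the model), two-sided and adjusted over all genes tested. Fold changes are on that log2 scale, where changes of low genes come out too small. Symbols and places come from GENCODE 29 (GRCh38), which held 57881 of 58219 IDs. The code was tested on simulated data. A difference counts as called at an adjusted p under 0.05. Named genes are the 9 enzymes, up to 4 called genes of smallest adjusted p per list, detected pseudogene copies and the nearest pattern. Genes of lists, and overlapping or neighbouring genes, were also named for their place. The genes and lists were chosen with earlier results of these data known. Count-based tests were not applied because the values are scaled and not whole. An overlapping gene is not reported here.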

Additional observations from a re-analysis of the deposited data

How the results depend on the processing

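Under 13 alternative settings (pseudocounts of 0.5 and 5, no filter on low values and a filter of 100, TMM factors, library totals and median-of-ratios factors, limma without robust moderation, the replicate number as a block, and each library left out), MDH1 stayed higher and FH lower and past the threshold in all 13. Their log2 fold changes ran from 0.44 to 0.64 and from −0.42 to −0.28. With library totals alone 3 of the 9 genes were called higher, because SUCLG2 (0.26) and MDH2 (0.22) passed with MDH1. In that setting 3665 of all 16132 genes tested were called higher, and the median log2 fold change of all genes was 0.076. The signs of CS and SDHA, neither of them called in any setting, turned with library totals alone (0.082 and 0.074), and that of CS turned with median-of-ratios factors (0.0025). CS was also at 0.0016 without resistant replicate 1 and 0.033 without parental replicate 1, in a range of −0.059 to 0.033 over the 4 libraries left out. SDHA was at 0.040 without resistant replicate 1 and 0.046 without parental replicate 2, in a range of −0.088 to 0.046. The cause was not tested. Leaving out a library gave 3528 to 5435 called genes in all. With the replicate block 8624 of 16132 genes were called, 3903 of them higher. Of the 9 enzymes, 2 were called higher with that block, SUCLG2 beside MDH1. Same-numbered libraries deviated together with a correlation of 0.27 across genes, but 2 pairs cannot show that the numbers pair the samples. The 2 planned count-based tests were not run on these scaled values. With 1 library left out, the log2 difference of SDHA over SDHB ran from −0.25 to −0.042 and that of SUCLG1 over both beta subunits from −0.28 to −0.11. SUCLG1, SUCLA2 and SDHB passed in none of the 13 settings.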
